A study of Mus musculus with 8 samples.

Results

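The genes examined here were 10 mouse Toll-like receptor genes, out of 21938 protein-coding genes. *Tlr11* and *Tlr12* were not among them and were counted with the genes that act with the receptors. The 10 genes were *Tlr1*, *Tlr2*, *Tlr3*, *Tlr4*, *Tlr5*, *Tlr6*, *Tlr7*, *Tlr8*, *Tlr9* and *Tlr13*. A peak was placed at one of these loci when its centre lay in the gene or within 20 kb of either end (GENCODE M21, mm10). This gave 84 of the 67673 peaks in the 4 deposited lists. X18.1.1 is a murine AML line, induced by radiation, in which one copy of *Pu.1* is lost and the other encodes a protein with a missense change in its DNA-binding domain and with part of its PEST domain deleted. ChIP-Seq with antibodies against PU.1 and CEBPA was performed in a clonal line transduced with empty vector (PU.1−) and in a clonal line transduced with PuER (PU.1+), in which a retrovirus supplies intact PU.1 joined to an oestrogen receptor domain that responds to 4-hydroxytamoxifen (OHT). Both lines were kept in 100 nM OHT for 2 h and retained the mutant protein. The PU.1 antibody could recover mutant PU.1 in PU.1− and either form in PU.1+. Each line was a single clone with 1 library per antibody. Clone and induction therefore cannot be told apart, no test between the lines was possible, and the depth behind each list is unknown. Expression was not measured in these files, so the cell type could not be checked against marker genes.

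Toll-like receptors sense microbial molecules on phagocytes and signal to NF-κB and interferon regulatory factors. TLR2 pairs with TLR1 or TLR6 to recognise lipopeptides, TLR4 recognises lipopolysaccharide and TLR5 recognises flagellin, all at the cell surface. TLR3, TLR7, TLR8, TLR9 and TLR13 reside in endosomes and recognise nucleic acids. PU.1 is an ETS-family factor that binds sites with a GGAA core, and CEBPA is a bZIP factor that acts with it at many myeloid genes.

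The sequences that follow are centres of PU.1 peaks of the PU.1+ list, the nearest of each class to the start of the gene, and are shown because they give the bases under the calls. They were read from the GRCm38 reference on the strand of the gene, 5′ to 3′. Capitals mark GGAA in either orientation, extended to GGAAGT where those 6 bases were present. The first 8 lines belong to peaks absent from the PU.1− list and the last 4 to peaks found in both lists, and the shared peaks of *Tlr7* and *Tlr13* are not shown. The central 80 bp are given, or 30 bases around a site where the centre touched a UTR.
Tlr2, chr3:83839617-83839696, minus strand: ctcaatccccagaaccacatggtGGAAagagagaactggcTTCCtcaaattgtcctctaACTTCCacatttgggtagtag
Tlr3, chr8:45409623-45409702, minus strand: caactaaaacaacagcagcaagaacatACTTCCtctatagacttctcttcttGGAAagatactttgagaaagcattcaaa
Tlr4, chr4:66852110-66852189, plus strand: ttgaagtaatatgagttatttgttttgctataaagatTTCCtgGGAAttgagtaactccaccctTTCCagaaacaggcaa
Tlr5, chr1:182953808-182953887, plus strand: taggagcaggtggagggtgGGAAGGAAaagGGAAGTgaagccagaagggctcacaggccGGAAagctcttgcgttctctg
Tlr7, chrX:167340081-167340160, minus strand: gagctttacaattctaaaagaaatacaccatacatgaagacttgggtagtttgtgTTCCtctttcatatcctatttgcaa
Tlr8, chrX:167264306-167264335, minus strand: aagTTCCtgtcTTCCaacataaacttctgc
Tlr9, chr9:106222597-106222626, plus strand: gtgaaagtgtcACTTCCtcaattctctgag
Tlr13, chrX:106139642-106139721, plus strand: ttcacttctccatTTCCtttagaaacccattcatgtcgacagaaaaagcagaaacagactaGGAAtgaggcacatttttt
Tlr1, chr5:64923122-64923201, minus strand: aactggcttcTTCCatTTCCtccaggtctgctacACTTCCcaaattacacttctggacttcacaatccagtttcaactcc
Tlr2, chr3:83845351-83845430, minus strand: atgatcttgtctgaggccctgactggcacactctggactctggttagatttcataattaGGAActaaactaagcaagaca
Tlr4, chr4:66827609-66827638, plus strand: tcagtcttctaACTTCCctcctgcgacggg
Tlr6, chr5:64960919-64960998, minus strand: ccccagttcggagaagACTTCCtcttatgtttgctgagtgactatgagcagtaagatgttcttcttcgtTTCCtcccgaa

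PU.1 was called at all 10 loci in PU.1+, with 24 peaks, and at 6 loci in PU.1−, with 9 peaks. The 9 PU.1− peaks were each matched in PU.1+ by a peak that overlapped by at least 1 bp, the study's distance for merging. No PU.1 peak was PU.1−-only, the term used here for a peak of PU.1− without an overlapping peak in PU.1+. The remaining 15 PU.1 peaks were PU.1+-only, without an overlapping peak in PU.1−, and lay at 8 loci, all except *Tlr1* and *Tlr6*. CEBPA was called at 9 loci in both lines, all except *Tlr3*, with 26 peaks for PU.1− against 25 for PU.1+, of which 23 were shared. The map of peak centres shows these calls gene by gene.

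**Figure D1:**
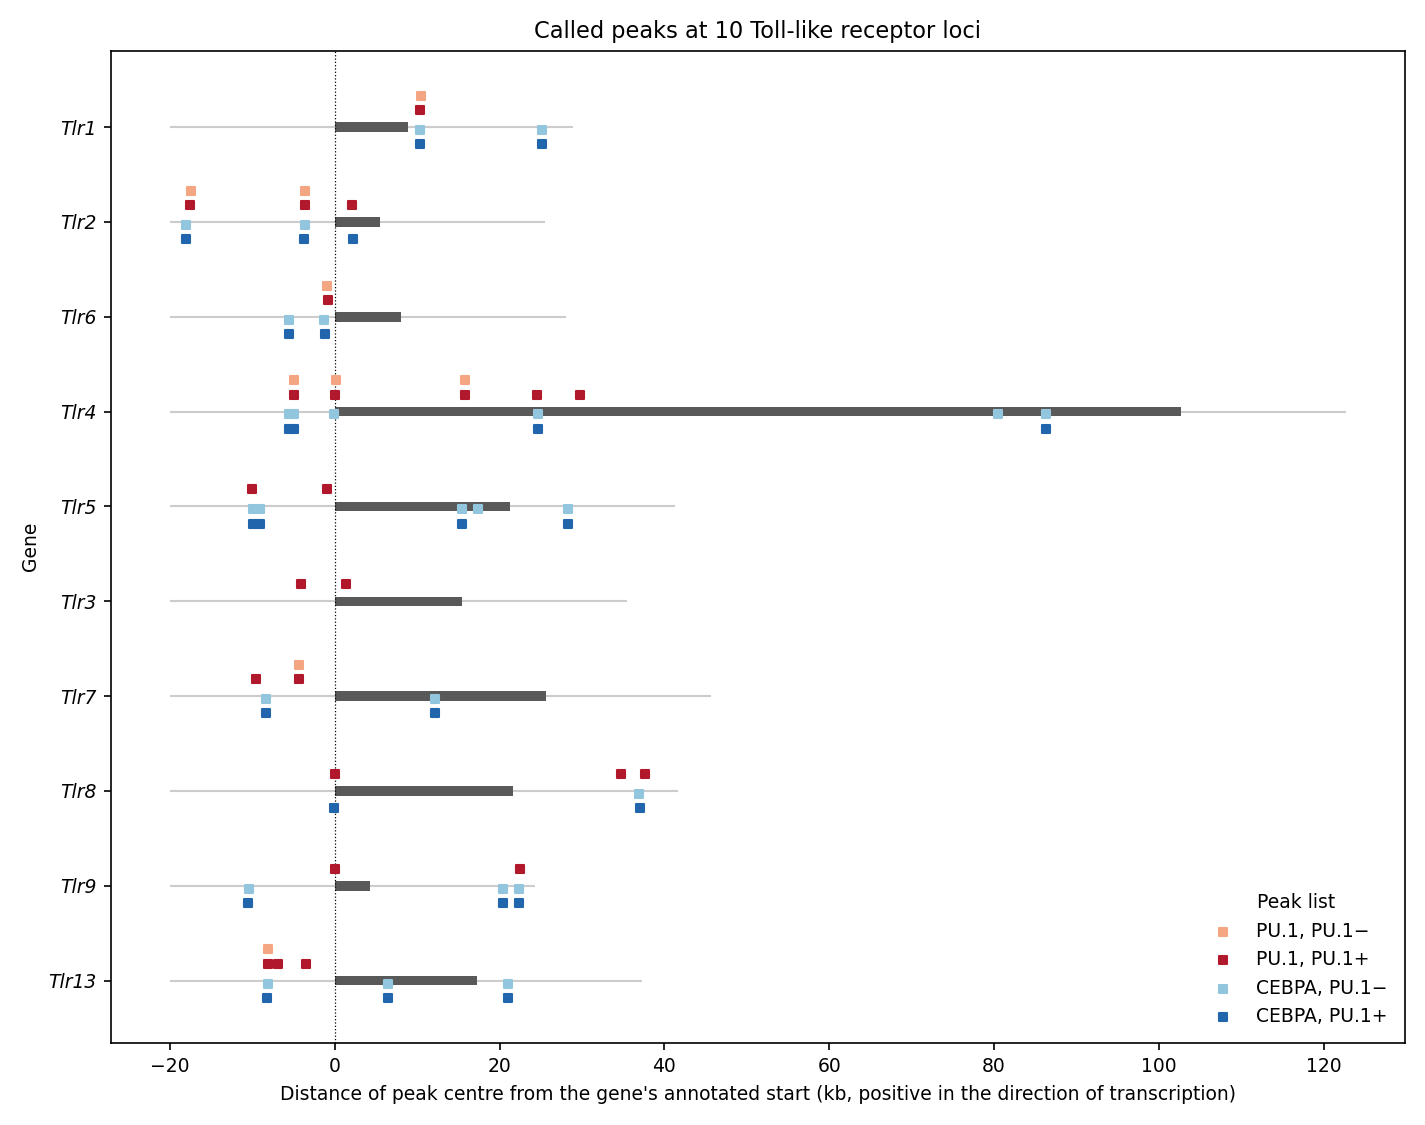
Each square is the centre of a called peak, placed by its distance in kb from the annotated start of the gene, with positive values in the direction of transcription. Dark bars are gene bodies, thin lines the 20-kb margins, and colours the 4 peak lists. PU.1+ squares without a PU.1− square at the same place are the 15 PU.1+-only peaks, while most CEBPA squares come in pairs.

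Among the lipopeptide receptors, only *Tlr2* had a PU.1 peak that differed between the lists. It lies on the minus strand of chromosome 3, between 83836272 and 83841767. The PU.1− list had PU.1 peaks 3644 and 17476 bp upstream of its start, and both were found again in the PU.1+ list, with centres 20 and 48 bp away. The PU.1+ list also had a PU.1 peak in an intron of *Tlr2*, at chr3:83839457-83839856 and 2110 bp after the start. A CEBPA peak that was likewise absent from the PU.1− list overlapped it by 307 bp. As every peak is 400 bp wide, an overlap here is a measure of the distance between centres and not of shared peak extent. The intronic sequence held 3 GGAA cores, of which 1 was part of GGAAGT. Both factors were thus listed together at this intronic position in PU.1+ and neither in PU.1−.

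*Tlr1* and *Tlr6*, whose products are the partners of TLR2, lie beside each other on the minus strand of chromosome 5. *Tlr1* (64924679 to 64933563) had a single PU.1 peak in either list, 10417 bp after the start in PU.1− and 10401 bp after it in PU.1+, which is 1517 bp past the end of the gene. *Tlr6* (64952031 to 64960097) likewise had a single PU.1 peak, centred 885 bp upstream of its start in PU.1− and 862 bp upstream in PU.1+. Each of these PU.1 peaks overlapped a CEBPA peak in both lines, by 320 bp (PU.1−) or 367 bp (PU.1+) at *Tlr1* and by 47 bp (PU.1−) or 144 bp (PU.1+) at *Tlr6*. The *Tlr6* sequence had GGAAGT in the orientation ACTTCC followed by TC, the longer PU.1-type site GAGGAAGT read from the other strand. Whether binding at these sites was stronger in PU.1+ could not be measured from coordinates. *Tlr6* was among the targets the study selected with the help of these libraries, and its peak is no independent evidence of that choice. The study's rule asked for a rise in PU.1 and H3K27Ac reads at a peak assigned to the gene, and for raised expression. Which peak was assigned to *Tlr6* is not given in the sources used here.

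*Tlr4*, the lipopolysaccharide receptor, had the most PU.1 peaks of the 10 genes, with 3 in the PU.1− list against 5 in the PU.1+ list, and also the longest annotated gene body, 102701 bp. It lies on the plus strand of chromosome 4, from 66827584 to 66930284. The 3 shared PU.1 peaks were centred 4895 bp upstream, 63 bp after the start in a UTR, and 15870 bp into the gene in an intron, by their PU.1+ positions. PU.1+-only peaks of PU.1 were centred in introns at 24566 and 29774 bp after the start. The peak at 24566 bp overlapped a CEBPA peak of PU.1+ by 350 bp and a CEBPA peak of PU.1− by 344 bp, so CEBPA was listed there in both lines. CEBPA was called in PU.1− at 6 positions and in PU.1+ at 4 of these. A peak absent from the PU.1+ list was centred 106 bp upstream of the start, where it overlapped the shared PU.1 peak by 186 bp in PU.1− and by 231 bp with the PU.1+ coordinates. The other was centred 80492 bp after the start, in an intron without a PU.1 call. *Tlr4* was the only one of the 10 genes at which a CEBPA peak overlapping a PU.1 peak was PU.1−-only.

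*Tlr5*, the flagellin receptor, had 2 PU.1 peaks, both PU.1+-only. It lies on the plus strand of chromosome 1, between 182954788 and 182976044. The PU.1 peaks were centred 940 and 9973 bp upstream of the start. The peak at 940 bp had no CEBPA peak in either line, and its centre held 4 GGAA cores, 1 of them in GGAAGT. The peak at 9973 bp overlapped a CEBPA peak that was shared between the lines, by 362 bp in PU.1+, and held a GAGGAAGT site. CEBPA was called at 5 positions in PU.1− against 4 in PU.1+. The position missing from the PU.1+ list was 17362 bp after the start, in an intron. It lay 27 bp from the nearest annotated transcript start of *Tlr5*.

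The endosomal receptors had fewer PU.1 calls in PU.1− than the receptors of the cell surface. Of the 9 PU.1− peaks, 7 lay at *Tlr1*, *Tlr2*, *Tlr4* or *Tlr6*, and the other 2 at *Tlr7* and *Tlr13*. Of the 7, 3 lay at *Tlr4*, whose gene and margins span 142701 bp, the longest of the 10. A PU.1 peak in PU.1+ with none in PU.1− was found at *Tlr3*, *Tlr8* and *Tlr9* among the 5 endosomal receptor genes and at *Tlr5* among the 5 genes of the cell surface. These are 4 of 10 genes (12.2–73.8%, exact interval), against 22.6% of all protein-coding genes, which the interval includes. The difference between endosomal and surface receptors was not tested.

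*Tlr3*, which senses double-stranded RNA, had 2 PU.1 peaks, both PU.1+-only, and no CEBPA peak in either line. It lies on the minus strand of chromosome 8, from 45395665 to 45411080. The PU.1 peaks were centred in an intron 1417 bp after the start and 4067 bp upstream of it. The intronic peak lay 713 bp from the nearest annotated transcript start of *Tlr3*. Its centre contained ACTTCC followed by TC, again the PU.1-type site on the other strand. *Tlr3* was the only one of the 10 genes without a CEBPA call.

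*Tlr7* and *Tlr8* encode receptors for RNA and lie in tandem on the minus strand of chromosome X. *Tlr7* (167304929 to 167330558) had a PU.1 peak 4294 bp upstream of its start in PU.1−, called again 3 bp away in PU.1+, and a second PU.1 peak 9563 bp upstream in PU.1+ only. Its CEBPA peaks, 12161 bp after and 8286 bp before the start in PU.1+, were shared and did not overlap its PU.1 peaks. *Tlr8* (167242696 to 167264329) had 3 PU.1 peaks, all PU.1+-only, the most peaks of this class at any of the 10 genes, and 6.80% of all protein-coding genes had at least as many. A PU.1 peak was centred 27 bp after its start, in a UTR, and overlapped by 334 bp a CEBPA peak centred 39 bp before the start. Neither was in the PU.1− lists. The central 80 bp of this PU.1 peak had 2 GGAA cores, no GGAAGT and 1 CEBP site (TTGCNNAA, where N stands for A, C, G or T). The other PU.1 peaks lay 34782 and 37621 bp after the start, beyond the end of the gene, and the nearest start there was that of *Tmsb4x*.

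*Tlr9*, the receptor for unmethylated CpG DNA, also had 2 PU.1 peaks, both PU.1+-only. It lies on the plus strand of chromosome 9, from 106222598 to 106226883, and is the shortest of the 10 genes at 4286 bp. A PU.1 peak was centred 23 bp after its start, in a UTR, without a CEBPA peak in either line. A GAGGAAGT site, in the orientation ACTTCCTC, began 10 bp after the annotated start. The other PU.1 peak, 22425 bp after the start, lay in an intron of *Alas1* and overlapped a shared CEBPA peak by 335 bp in PU.1+. All 3 CEBPA peaks at this locus were shared and were nearest to the starts of *Twf2* or *Alas1*, so the PU.1 peak at the start was the only call of either factor that was nearest to *Tlr9* itself.

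*Tlr13*, which recognises bacterial ribosomal RNA, had 1 PU.1 peak in PU.1− and 3 in PU.1+. It lies on the plus strand of chromosome X, from 106143204 to 106160493. All of its PU.1 peaks were upstream. The shared peak was centred 8130 bp before the start in PU.1− and 8146 bp before it in PU.1+, and it overlapped a CEBPA peak in both lines, by 389 bp in PU.1+. The PU.1+-only peaks were 6845 and 3522 bp before the start and had no CEBPA peak. Its 3 CEBPA peaks were shared, including an intronic peak with the same coordinates in both lists.

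When the peaks of the 4 lists were merged by overlap, the 10 loci held 41 sites. The most frequent pattern was CEBPA in both lines without PU.1, at 15 sites, followed by PU.1 in PU.1+ alone, at 10 sites. All 4 lists had a peak at 5 sites, found at *Tlr1*, *Tlr2*, *Tlr4*, *Tlr6* and *Tlr13*. A PU.1+-only peak of PU.1 lay on CEBPA called in both lines at 3 sites, in *Tlr4*, upstream of *Tlr5* and in *Alas1* beside *Tlr9*. PU.1 and CEBPA were both PU.1+-only at 2 sites, the *Tlr2* intron and the *Tlr8* start. PU.1 in both lines without CEBPA was found at 3 sites, at *Tlr2*, *Tlr4* and *Tlr7*. The remaining 3 sites had a PU.1−-only CEBPA peak, and 1 of them, at the *Tlr4* start, also had PU.1 in both lines.

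**Figure D2:**
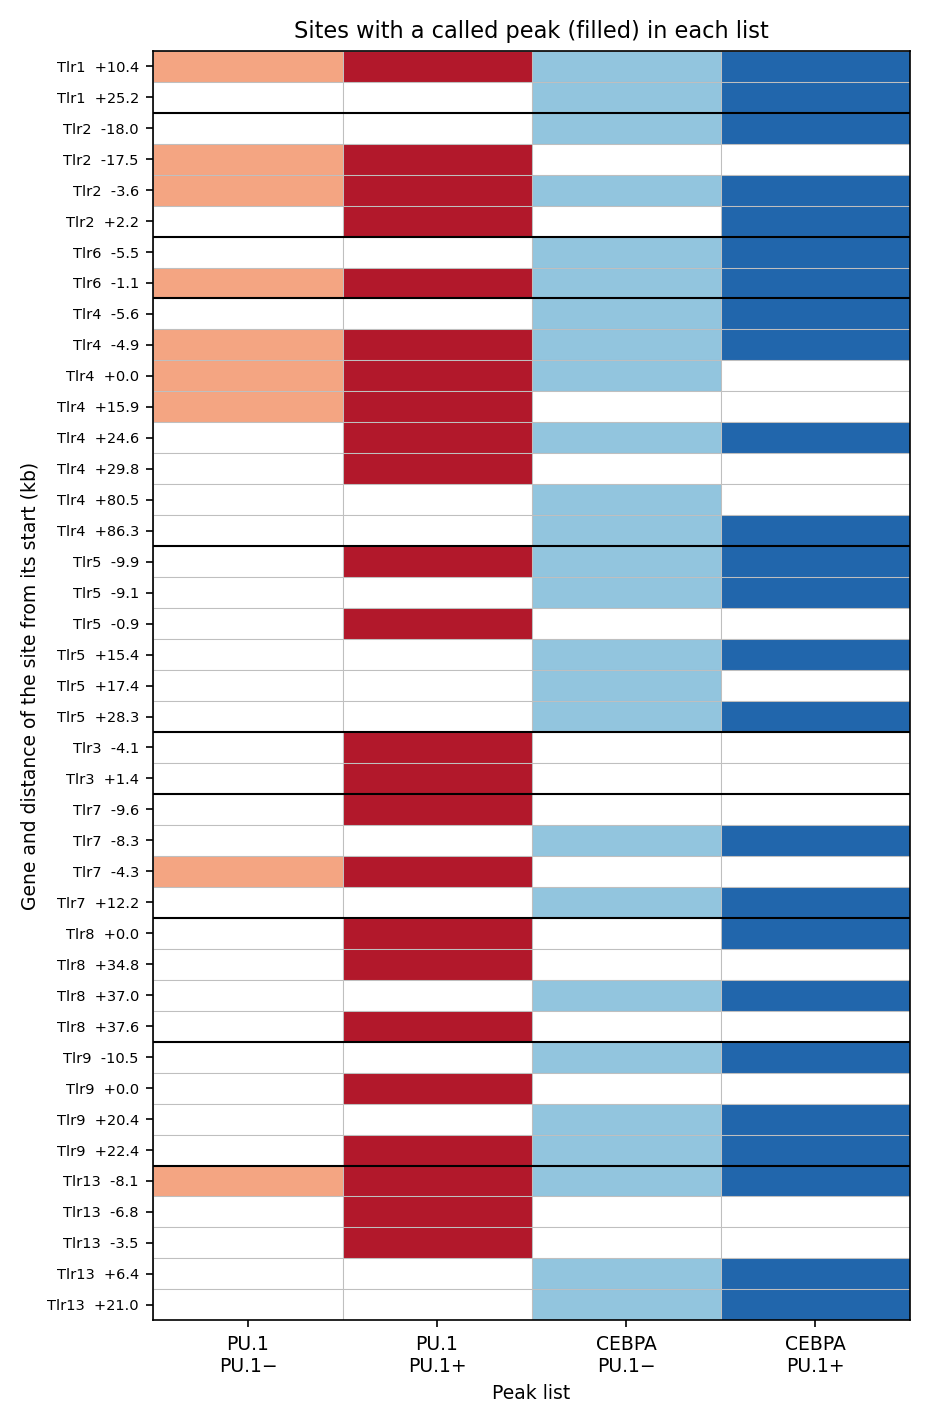
Each row is a site, labelled with its gene and its distance in kb from the start of the gene, and each column is a peak list, filled where a peak was called. Of 41 sites, 15 are filled for CEBPA in both lines alone and 10 for PU.1 in PU.1+ alone.

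With the 20-kb margin, a smaller share of peaks at the Toll-like receptor loci lacked a partner in the other line than in the whole list. This held for each of the 4 lists. In gene bodies alone it did not hold for CEBPA in PU.1+, with 1 PU.1+-only and 5 shared peaks. With a margin of 50 kb, PU.1 had 31 PU.1+-only and 9 shared peaks, a share nearer that of the whole list. Of the 24 PU.1 peaks of PU.1+, 62.5% were called in that line only (95% confidence interval 40.6–81.2%, exact Clopper-Pearson), against 81.1% of the whole list. Of the 9 PU.1 peaks of PU.1−, 0 were called in that line only, which allows up to 33.6%, against 43.8% of the whole list. For CEBPA, 11.5% of the 26 PU.1− peaks were called in PU.1− only (2.45–30.2%), against 30.7%. In PU.1+, 2 of the 25 CEBPA peaks were called only there (0.984–26.0%), against 12.1% of the whole list. The intervals for PU.1 in PU.1− and for CEBPA in PU.1− lay below the shares of the whole lists, and those for both factors in PU.1+ included them. Intervals cover counting error only, and peaks of a locus are not independent.

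Counted by gene, a PU.1+-only peak of PU.1 was found at 8 of the 10 genes, against 36.7% of all protein-coding genes. Among the 16038 genes between the shortest and the longest of the 10 in length, the share was 37.1%. This range takes in most protein-coding genes, so it adjusts little for gene length. Any PU.1 peak in PU.1+ was found at 10 of 10, against 41.4%. A PU.1 peak called in both lines was found at 6 of 10, against 13.4%, and a PU.1−-only peak at 0 of 10, against 13.7%. A CEBPA peak called in both lines was found at 9 of 10, against 48.3%. PU.1+-only CEBPA peaks were found at 2 of 10 (*Tlr2* and *Tlr8*), against 11.4%, and PU.1−-only CEBPA peaks at 2 of 10 (*Tlr4* and *Tlr5*), against 30.1%. The shares for PU.1 in both lines, for PU.1 in PU.1+ only and for CEBPA in both lines had exact 95% intervals that lay above the background (26.2–87.8%, 44.4–97.5% and 55.5–99.7%), while the intervals for the other 3 classes included it. These intervals treat the genes as independent, although *Tlr1* and *Tlr6* lie beside each other, as do *Tlr7* and *Tlr8*. The genes were also chosen with earlier results of these data known. The median number of PU.1+-only PU.1 peaks was 2 per gene, against 0 over all genes. Without the 20-kb margin, 5 of the 10 genes had such a peak in the gene body (18.7–81.3%), against 18.2% of all genes, and the lower bound was then close to the background. A CEBPA peak in the gene body was found at 4 of the 10 genes in PU.1−, against 30.5%, and at 5 of the 10 in PU.1+, against 26.4%. Per 100 kb of gene and margin there were 2.38 PU.1+-only PU.1 peaks, against 0.747 over all genes, and 1.43 shared PU.1 peaks, against 0.190.

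**Figure D3:**
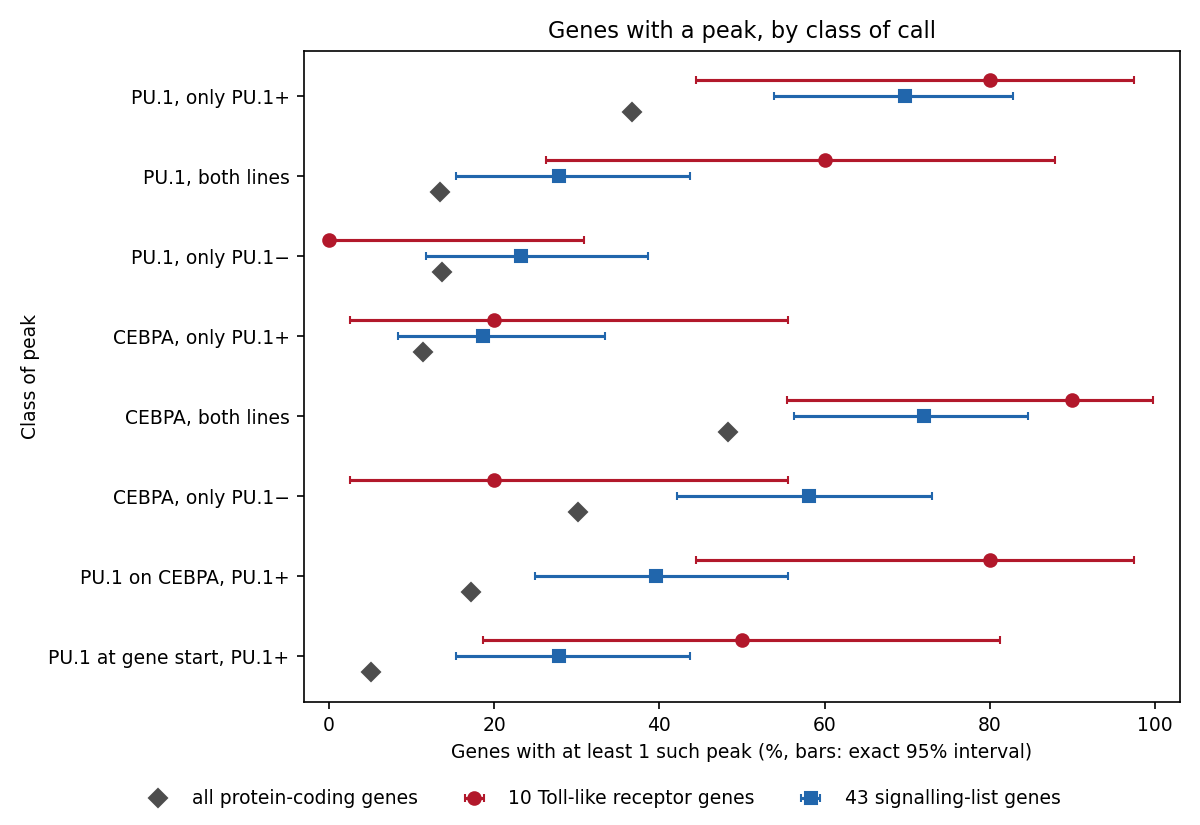
Points give the percentage of genes with at least 1 peak of each class for the 10 Toll-like receptor genes (circles), the 43 genes of the signalling list (squares) and all 21938 protein-coding genes (diamonds), with exact 95% intervals as bars. The circles lie to the right of the diamonds for 6 of the 8 classes, and to the left for PU.1−-only peaks of either factor.

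In PU.1+, a PU.1 peak was centred within 1000 bp of the annotated start of 5 of the 10 genes (*Tlr4*, *Tlr5*, *Tlr6*, *Tlr8* and *Tlr9*), against 5.13% of all protein-coding genes. This distance was chosen after the positions had been seen. Of the 9092 genes with any PU.1 peak in PU.1+, which include all 10, 1126 had one this near the start. A PU.1 peak of PU.1+ that overlapped a CEBPA peak of PU.1+ was found at 8 of the 10 genes, all except *Tlr3* and *Tlr7*, against 17.2% of all genes. All 10 genes had a PU.1 peak to begin with, and of the 9092 genes with a PU.1 peak in PU.1+, 41.4% had such an overlap, against an interval of 44.4–97.5% for the 10 genes. When 50% of each peak had to overlap, the count was 7 of 10, without *Tlr6*, against 15.7% of all genes. By peak, CEBPA of PU.1+ overlapped 5 of the 9 shared peaks, against 58.2% of shared PU.1 peaks in the whole list, and 5 of the 15 PU.1+-only peaks, against 23.2%, so that by peak the overlap was near that of the whole list. Of the 24 PU.1 peaks, 8 were centred in the Toll-like receptor gene and 16 outside it, and none was centred in coding sequence. The nearest annotated start was that of a Toll-like receptor gene for 21 of the 24 PU.1 peaks and for 20 of the 25 CEBPA peaks of PU.1+. These placements follow in part from the 20-kb rule and were not set beside those of the whole lists. The shared PU.1 peaks lay a median of 20 bp from their PU.1− counterpart, with a range of 1 to 48 bp. The median was 23 bp for the 2969 shared PU.1 peaks of the whole list.

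Sequence under the peaks was searched in the central 80 bp on both strands, with windows of the same length 2000 bp to either side as the background. GGAAGT was present in 12 of the 24 PU.1 peaks of PU.1+ (50.0%, 29.1–70.9%), against 43.5% of all PU.1 peaks of that list and 4.44% of flanking windows. Of the 15 PU.1+-only peaks 7 held it, against 42.9% of that class in the whole list, and of the 9 shared peaks 5 did, against 46.1%. The GGAA core alone was present in 22 of the 24, against 91.1% of all peaks and 55.9% of flanking windows. The longer PU.1-type site GAGGAAGT, which contains GGAAGT, was found in 4 of the 24 peaks, against 15.2% of the list, and these lay at *Tlr3*, *Tlr5*, *Tlr6* and *Tlr9*. The ETS-IRF composite was found in 1, downstream of *Tlr8*, against 11.8% of the list. The CEBP site was found in 9 of the 25 CEBPA peaks of PU.1+ (36.0%, 18.0–57.5%), against 38.2% of the list and 3.25% of flanking windows. Each of these shares had a 95% interval that included the value of its whole list. The GGAA core was present in 22 of the 26 CEBPA peaks of PU.1− (84.6%, 65.1–95.6%), against 60.6% of that list.

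**Figure D4:**
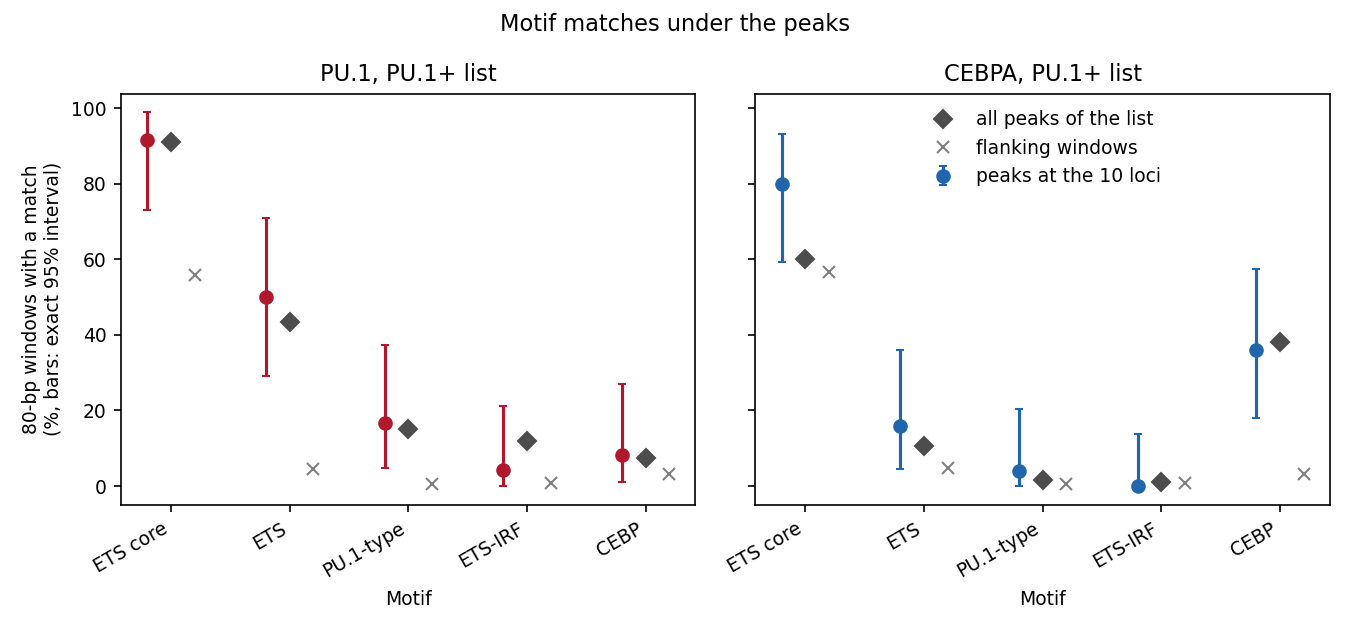
Percentage of central 80-bp windows with a match to each motif in the PU.1 list (left) and the CEBPA list (right) of PU.1+, for the peaks at the 10 loci (circles with exact 95% intervals), all peaks of the list (diamonds) and flanking windows (crosses). The interval at the 10 loci includes the value of the whole list for each motif, narrowly for the GGAA core (ETS core) in CEBPA peaks, where it is 59.3–93.2% and the whole list had 60.1%.

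The other letters searched were infrequent in PU.1 peaks of PU.1+, both at these loci and in the whole list. The RUNX sequence TGTGGT was present in 2 of the 24 PU.1 peaks of PU.1+, against 10.3% of the list, and the AP-1 sequence TGANTCA in 1, against 3.90%. The ISRE-type sequence, which can overlap the ETS-IRF composite, was present in 0 of 24, against 2.54%. For RUNX, AP-1 and ISRE-type alike, the exact interval at these loci included the value of the whole list. RefSeq promoter sequence (GRCm38.p6, 250 bp before to 50 bp after the start) was matched for 8 of the 10 genes, all except *Tlr4* and *Tlr7*. GGAAGT was present in those of *Tlr2*, *Tlr6* and *Tlr9*, against 24.1% of 27025 promoters. Of these 3, the *Tlr9* promoter alone was overlapped by a PU.1 peak in PU.1+. The *Tlr8* promoter was overlapped by a PU.1 peak and had no GGAAGT, but it had a TTGCNNAA site, as did the promoters of *Tlr3* and *Tlr13* and 10.8% of all promoters. No CEBPA peak was called at the *Tlr3* locus or at the start of *Tlr13*.

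The genes that act with Toll-like receptors, together with *Tlr11* and *Tlr12*, were examined as a list of 43, grouped by role. PU.1+-only PU.1 peaks were found at 30 of the 43 genes (69.8%, 53.9–82.8%), against 36.7% of all protein-coding genes, and shared PU.1 peaks at 12 (27.9%, 15.3–43.7%), against 13.4%. For the Toll-like receptor genes these numbers were 8 and 6 of 10. PU.1−-only PU.1 peaks were found at 10 of the 43 genes (23.3%, 11.8–38.6%), against 13.7% of all genes, which the interval includes, and at 0 of the 10 receptor genes. PU.1−-only CEBPA peaks were found at 25 of the 43 genes (58.1%, 42.1–73.0%), against 30.1% of all genes, and at 2 of the 10 receptor genes. The list includes genes that the study chose partly from PU.1 binding in these libraries, such as *Cd14*, *Ly86*, *Irf5* and *Tnfaip3*, and is not independent of it.

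Among the 11 co-receptors, chaperones and other receptors, 7 had a PU.1+-only peak of PU.1. *Ly86*, the partner of the receptor-like protein CD180, had 5, *Cd14*, which passes lipopolysaccharide to TLR4, had 4, and *Cnpy3*, a chaperone of Toll-like receptors, had 3. The remaining mouse receptors differed, with 1 such peak at *Tlr11* and 0 at *Tlr12*. At *Tlr12* the only PU.1 call was 1 PU.1−-only peak, so this receptor gene had no PU.1 peak in PU.1+. *Ly96*, which encodes the subunit MD-2 of the lipopolysaccharide receptor, had 0 and had instead 1 PU.1−-only peak. These last 3 genes are named outside the rule for naming genes, after their values were seen.

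Of the 6 adaptors, 4 had a PU.1+-only peak of PU.1. *Pik3ap1*, an adaptor that links Toll-like receptors to phosphoinositide 3-kinase, had 6, the most of the list, while *Ticam1* (TRIF) had 2 and *Sarm1* had 1, a tie with *Tirap* in which the alphabetical order decided the naming. The group of 11 kinases and ubiquitin ligases also holds kinase-binding proteins, such as that of *Tab2*. Of these 11 genes, 8 had a PU.1+-only peak of PU.1, with 5 at *Irak2*, 3 at *Tab2* and 2 at *Ikbkb*. Of the 9 transcription factors, 6 had one, with 4 each at *Irf5* and *Nfkb1* and 3 at *Irf8*. Of the 6 inhibitors of the pathway, 5 had one, with 3 at *Irak3* and 2 each at *Socs1* and *Tnfaip3*. With 36.7% of all protein-coding genes having such a peak, groups of 6 to 11 genes would be likely to hold some, and nothing is read from the roles one by one.

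The margin of 20 kb cut between neighbouring peaks upstream of *Tlr2*. The outermost peak inside it was the PU.1 peak in *Alas1*, 18140 bp from the end of *Tlr9*. The nearest peaks outside it lay upstream of *Tlr2*, where a PU.1 peak of PU.1+ was 21393 bp and CEBPA peaks of PU.1− and PU.1+ were 21350 and 21331 bp from the gene.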

How the data were processed

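Per the labels and the study's methods, the authors aligned the reads with Bowtie2 2.0.6 (mm10), ran MACS2 2.0.10 to call peaks and deposited the coordinates. The calling threshold is not given in the sources used here. Each interval was 400 bp wide, without a height, count or score, and how the width was set is not given in the sources used here. Peak lists of 4 of the 8 samples were used. Samples for H3K27Ac and IgG were left out because only peak lists were analysed. The lists held 5288 (PU.1, PU.1−), 15683 (PU.1, PU.1+), 26119 (CEBPA, PU.1−) and 20583 (CEBPA, PU.1+) peaks. A longer list has more peaks to be called in that line only, and binding may exist where a list has no peak.

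Peaks were compared by overlap of at least 1 bp and counted at genes by the 20-kb rule over all protein-coding genes of chromosomes 1 to 19, X and Y. A shared peak was counted once, by its PU.1+ coordinates. Gene starts are the 5′ ends of GENCODE genes. Intervals are exact binomial at 95%. The alternatives were stricter overlap, margins of 10, 50 or 0 kb, assignment by nearest start, and longer or looser motif searches. The genes, lists and motifs were chosen with earlier results of these data known. All 10 genes are named, and of the signalling list up to 3 genes per role, those with the highest number of PU.1+-only PU.1 peaks, ties taken in alphabetical order. The overlap step recovered 100% of simulated classes and gave those of bedtools 2.31.1. Python 3.11.15, scipy 1.17.1, pysam 0.24.0, samtools 1.23.1 and matplotlib 3.10.9 were used.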

Additional observations from a re-analysis of the deposited data

How the results depend on the processing

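The alternatives were run for the peaks by class, the genes with a PU.1+-only peak of PU.1 or with a CEBPA peak, the overlaps of PU.1 with CEBPA by peak and the signalling list, 12 counts in all, and not for the site patterns or the distance to gene starts. These counts kept within 1.5 times their values under both stricter overlap rules, with a margin of 10 kb, and when peaks had to be nearest to the start of a listed gene. With a margin of 50 kb, there were 31 PU.1+-only and 2 PU.1−-only peaks of PU.1, and 4 PU.1+-only and 5 PU.1−-only peaks of CEBPA. Without a margin, peaks in gene bodies alone were counted, and there were 6 PU.1+-only and 2 shared peaks of PU.1, and 1 PU.1+-only and 5 shared peaks of CEBPA. In that setting 5 Toll-like receptor genes had a PU.1+-only peak of PU.1, as did 17 of the 43 genes of the signalling list, against 18.2% of all genes. A CEBPA peak was found in 4 of 10 receptor genes in PU.1−, against 30.5%, and in 5 in PU.1+, against 26.4%. PU.1 overlapped CEBPA at 1 peak in PU.1− and at 3 in PU.1+. The smaller region counted sets these lower values. Searching 200 bp or the whole peak left the motif shares within their intervals. With GGAA in place of GGAAGT, 91.7% of the PU.1 peaks of PU.1+ matched, and with any base allowed at the G of the CEBP site, 57.7% and 76.0% of the CEBPA peaks of PU.1− and PU.1+ did. No paired analysis was possible because each group was a single library. Depth limits all calls, since no list gives read counts.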
